A study of Trametes versicolor with 17 samples.

Results

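Of the 13 manganese peroxidase genes that carry a symbol in Trametes versicolor, 7 lie close together on scaffold 10, and their transcripts were followed here across 6 groups of mycelial pellets. They were chosen by gene identifier and, for MnP6s and MnP9s, by the start and end of their gene models, and make up 7 of the 14296 models counted. The pellets, all of genotype label ASM 8036 and described in the design text as wild type, grew in 2% malt extract medium at 28 °C and 135 rpm. In the main batch, 3 libraries each came from controls without aqueous phase and from pellets kept for 3 days with 5% of an aqueous phase, which was made from waste food (FW), from waste of salad dressing (SD) or from algal biomass (AB). In the preliminary batch, 3 libraries came from pellets exposed to 5% AB for 7 days and 2 from controls of the same age. The aqueous phase is the water fraction left when wet waste is turned into an oil by hydrothermal liquefaction, and the study asks which genes respond to several feedstocks.

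Manganese peroxidases are secreted heme enzymes of white-rot fungi. With hydrogen peroxide they oxidise Mn(II) to Mn(III), which leaves the enzyme bound to organic acids and attacks phenolic units of lignin. White-rot fungi carry several such genes, and in these fungi manganese, nutrient state and other stresses are known to act on their transcription.

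The 7 genes span 93.5 kb of scaffold 10, from 2217215 to 2310731 in the coordinates of the count tables, together with 25 other gene models. MnP3s (gene_10752, 2217215 to 2218473, plus strand) stands at one end, and MnP13 (gene_10769, 2258153 to 2258981, minus strand) lies 40.9 kb further on. MnP7s (gene_10777, 2285768 to 2287180, minus strand) and MnP4s (gene_10778, 2291238 to 2292509, minus strand) are direct neighbours with 4057 bases between them. MnP6s (gene_10781, 2303472 to 2304869), MnP8s (gene_10782, 2306482 to 2307814) and MnP9s (gene_10783, 2309224 to 2310731), all on the plus strand, follow each other without another model between them. None of the 7 overlaps another model.

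The exon lengths fall into a few series that the choice of genes did not use. MnP3s and MnP4s both have exons of 61, 340, 201 and 484 bases in the direction of transcription, a series that 2 of the 14296 models have. MnP6s and MnP7s both have exons of 61, 340, 201, 242, 238 and 13 bases, again 2 of all models, and MnP9s differs from them in its first exon of 181 bases. An exon of 340 bases followed by one of 201 occurs in 5 models, all of them in the cluster. Manganese peroxidases outside it come near these lengths, with 343 and 201 in MnP1s and 343 and 198 in MnP10s. MnP8s has the related series 77, 340, 198, 242 and 239. Its 1096 bases are not a multiple of 3, as the lengths of 71.6% of all models are. MnP13 is shortest, with 714 bases in exons of 221, 480 and 13, and shares the last 2 lengths with MnP1s alone among all models, a manganese peroxidase elsewhere on scaffold 10. How reads that fit several genes were counted is not given in the sources used here, so values of genes with such like structure are uncertain to the extent that they share reads.

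Levels are counts per 1e6 (CPM) of the scaled library total, and differences are log2 fold changes with standard errors (SE) from edgeR's quasi-likelihood test, called at a Benjamini-Hochberg adjusted p of 0.05 over all genes tested. Each main library held 15.5 to 18.8 M (1e6) counts in all and each preliminary one 27.7 to 35.2 M, so 3 counts stand for at most 0.199 CPM and 0.116 CPM. Each main group's libraries differed from each other by a median absolute log2 difference over genes of 0.174 to 0.330. The preliminary libraries stood further apart, with 0.509 between the controls and up to 0.662 among the AB libraries, where replicate 2 lay away from replicates 1 and 3. Of the 7 genes 6 passed the filter on low counts in the main batch, all but MnP6s, and 3 did in the preliminary batch.

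**Figure D1:**
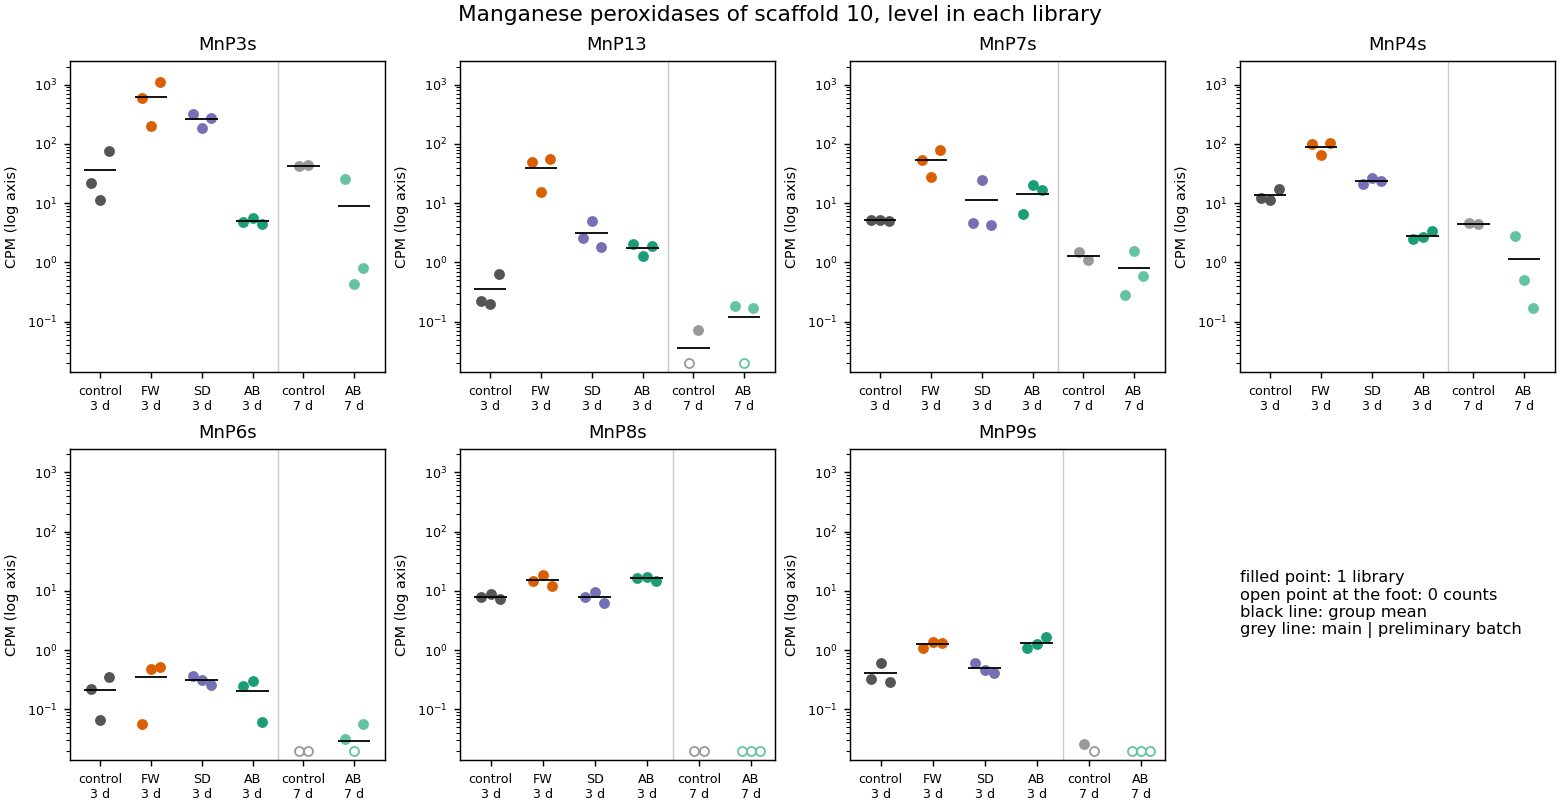
Level of each of the 7 genes in each library, in CPM on a log axis, for the 6 groups, with the group mean as a line and libraries without counts as open points at the foot. At 3 days MnP3s and MnP4s lay above the controls under FW and SD, MnP4s by 1.73-fold under SD, and below them under AB. MnP8s and MnP9s were high under FW and AB, and MnP8s had no counts in any of the 5 libraries of the preliminary batch.

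MnP3s had the highest mean level per kilobase of exon of the 7 in the controls at 3 days and under FW and SD. Its levels were 21.9, 11.4 and 75.7 CPM in control replicates 1 to 3, 590, 201 and 1094 CPM under FW, 319, 187 and 279 CPM under SD, and 4.85, 5.61 and 4.53 CPM under AB. Each library under FW and SD lay above all controls, and each library under AB below them. The log2 fold change against control was 4.11 (SE 0.67, adjusted p = 0.000315) under FW, 2.85 (SE 0.64, adjusted p = 0.00764) under SD and -2.86 (SE 0.68, adjusted p = 0.00245) under AB. Without control replicate 3, the highest control, these were 5.23, 3.97 and -1.74 (adjusted p 8.44e-05, 0.00199 and 0.0160). Its spread was wide in the controls, with a coefficient of variation of 95%, and in FW, with 71.2%, and narrow under AB, with 11.1%. FW and SD overlapped, and their difference of 1.26 (SE 0.60, adjusted p = 0.141) was not called. That difference has an approximate 95% interval of -0.03 to 2.56, and without FW replicate 2 it was 1.71 (adjusted p = 0.0480). In whole pellets, less transcript per cell and fewer cells with the transcript cannot be told apart.

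MnP4s, which has the exon series of MnP3s, moved in the same directions with less spread. Its levels were 12.4, 11.3 and 17.3 CPM in the controls, 98.4, 64.0 and 105.5 CPM under FW, 20.8, 26.9 and 23.5 CPM under SD, and 2.46, 2.65 and 3.44 CPM under AB. None of these groups overlapped another. The log2 fold changes against control were 2.71 (SE 0.22, adjusted p = 1.51e-06) under FW, 0.79 (SE 0.21, adjusted p = 0.0184) under SD and -2.26 (SE 0.24, adjusted p = 3.44e-06) under AB. FW exceeded SD by 1.91 (SE 0.21, adjusted p = 7.19e-05). Leaving out control replicate 1, control replicate 2 or SD replicate 2 ended the SD call (adjusted p 0.0639, 0.0556 and 0.0590). From FW to AB the level of MnP4s fell 31.2-fold and that of MnP3s 126-fold, by log2 differences of 4.96 (SE 0.25, adjusted p = 1.01e-08) and 6.97 (SE 0.79, adjusted p = 1.28e-05).

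MnP13, the gene with the short model, was close to silent in the controls and had the largest absolute log2 fold change of all 10838 genes tested between FW and control. By the p-value of that test it ranked 187th. It passed the filter on low counts through exposed libraries, where it is higher, so the size of its fold changes against control rests on a few control counts. It had 4, 3 and 11 counts in the controls, 872, 256 and 967 under FW, 51, 96 and 36 under SD, and 33, 21 and 31 under AB. All libraries of each exposed group lay above all controls, and SD and AB overlapped. The rise was 6.78 on the log2 scale (SE 0.62, adjusted p = 3.22e-06) under FW, 3.10 (SE 0.66, adjusted p = 0.00571) under SD and 2.26 (SE 0.71, adjusted p = 0.0139) under AB. Leaving out control replicate 1 ended the AB call (2.00, adjusted p = 0.0536), and without control replicate 3 the 3 values were 7.52, 3.85 and 3.00. FW stood above SD by 3.67 (SE 0.47, adjusted p = 0.000198) and above AB by 4.52 (SE 0.51, adjusted p = 1.24e-05), whereas SD and AB differed by 0.85 (SE 0.52, adjusted p = 0.182), with an interval of -0.27 to 1.96.

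MnP7s had even controls and uneven exposed groups. Its levels were 5.17, 5.23 and 4.95 CPM in the controls, 52.9, 27.7 and 80.1 CPM under FW, 4.57, 25.1 and 4.27 CPM under SD, and 6.68, 20.4 and 16.6 CPM under AB. The FW libraries were all above the others, SD replicate 2 stood apart from the other SD libraries, and all AB libraries exceeded all controls. The rise under FW was 3.39 (SE 0.66, adjusted p = 0.00106). Under SD the log2 fold change was 1.14 (SE 0.63, interval -0.23 to 2.51, adjusted p = 0.223), and -0.19 without SD replicate 2. Under AB it was 1.51 (SE 0.64, adjusted p = 0.0535), just outside the threshold, and was called with another scaling of the libraries (1.54, adjusted p = 0.0489), in a fit of these groups alone (1.52, adjusted p = 0.00387) and without AB replicate 1 (1.86, adjusted p = 0.0280). FW exceeded SD by 2.24 (SE 0.61, adjusted p = 0.0177) and AB by 1.88 (SE 0.60, adjusted p = 0.0239). The first of these calls was lost without FW replicate 3 (adjusted p = 0.0613) or SD replicate 1 or 3 (0.0558 and 0.0586). The second was lost without FW replicate 3 or AB replicate 1 or 3 (0.0911, 0.0903 and 0.0547). Between SD and AB the difference was -0.37 (adjusted p = 0.631), and -1.72 (adjusted p = 0.00883) without SD replicate 2.

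MnP8s and MnP9s, neighbours at the far end of the stretch, rose under FW and AB and were not called under SD. MnP8s had 7.92, 8.74 and 7.37 CPM in the controls, 14.4, 18.6 and 12.1 CPM under FW, 8.01, 9.68 and 6.22 CPM under SD, and 16.8, 17 and 14.9 CPM under AB. The FW and AB libraries lay above all controls, and the SD libraries spanned the controls. The log2 fold change was 0.91 (SE 0.19, adjusted p = 0.00210) under FW, 1.02 (SE 0.19, adjusted p = 0.000516) under AB and -0.01 (SE 0.20, adjusted p = 0.986) under SD, the last with an interval of -0.43 to 0.42. SD was below AB by 1.02 on the log2 scale (SE 0.19, adjusted p = 0.000636) and below FW by 0.91 (SE 0.19, adjusted p = 0.00467). FW and AB differed by -0.11 (SE 0.19, adjusted p = 0.672), with an interval of -0.52 to 0.30.

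MnP9s was lower than MnP8s per kilobase of exon in each of these groups. It had 6, 9 and 5 counts in the controls, 19, 23 and 23 under FW, 12, 9 and 8 under SD, and 17, 21 and 27 under AB. The FW and AB libraries did not overlap with the controls or with SD. It passed the filter on low counts through the FW and AB libraries, where it is high, and could not be fitted from the SD and control libraries alone. It rose by 1.63 (SE 0.35, adjusted p = 0.00229) under FW and by 1.71 (SE 0.35, adjusted p = 0.000935) under AB, and under SD its log2 fold change was 0.30 (SE 0.39, interval -0.54 to 1.15, adjusted p = 0.619). MnP6s, in contrast, stayed at 1 to 9 counts in every main library, with 11, 18, 18 and 10 counts summed over the control, FW, SD and AB groups. It was not tested, although its exon lengths equal those of MnP7s, which reached 1398 counts under FW.

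**Figure D2:**
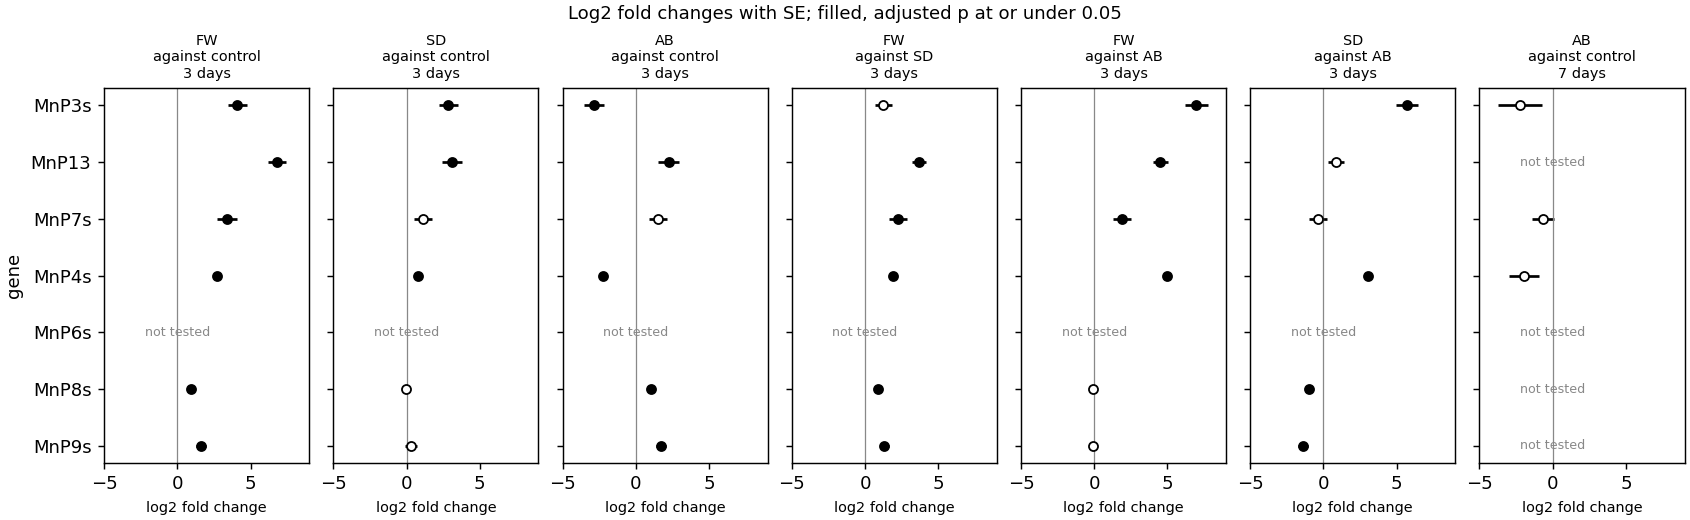
Log2 fold change of each gene (x axis) in 7 comparisons, with its SE as a bar and a filled point where the adjusted p was at or under 0.05. Under FW all 6 tested genes were called higher than in the controls, where 22.4% of all genes tested were called higher. MnP13 and MnP9s passed the filter on low counts only through exposed groups. Under AB MnP3s and MnP4s lay at -2.86 and -2.26 while MnP13, MnP8s and MnP9s lay at 1.02 to 2.26.

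Counted together, 6 of the 6 tested cluster genes rose under FW, where 45.8% of all genes tested were called and 22.4% were called higher. MnP13 and MnP9s passed the filter only through exposed groups and not through their controls, so these counts and medians describe the tested genes and are not evidence about all 7. Under SD 3 of 6 rose and none fell, where 21.1% of all genes were called and 10.3% called higher. Under AB 3 rose and 2 fell, where 62.4% of all genes were called (29.8% higher and 32.6% lower), so the number of cluster genes called is near the background there. The median log2 fold change of the 6 genes was 3.05 under FW, 0.96 under SD and 1.27 under AB, beside -0.01, -0.01 and -0.06 over all genes tested. These comparisons share the 3 control libraries. Between the phases 5 of 6 were higher under FW than under SD (25.4% of all genes called, 13.3% higher and 12.1% lower). Under FW 4 were higher than under AB and none lower (42.1% called, 21.9% higher and 20.2% lower), and under SD 2 were higher and 2 lower than under AB (54.2% called, 28.3% higher and 25.9% lower). The libraries of FW and control did not overlap for 6 of 6 genes, where this held for 53.0% of all genes, and for SD and control this held for 3 of 6 against 35.9%. For AB and control the libraries did not overlap for 6 of 6, against 69.0%. Between the phases it held for 5 of 6 genes for FW and SD, against 39.6%, for 4 of 6 for FW and AB, against 55.8%, and for 4 of 6 for SD and AB, against 63.6%.

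Calls on the other gene models of the same stretch went in both directions under FW and AB. Of these 25 models 22 were tested, and 3 rose and 5 fell under FW, none rose and 2 fell under SD, and 8 rose and 9 fell under AB. Their median log2 fold changes were 0.10, -0.27 and -0.26. Of the 40 models that flank the cluster, 20 on each side, 31 were tested, and 2, 1 and 8 of them rose while 11, 6 and 13 fell under FW, SD and AB. Over all genes tested, 22.4%, 10.3% and 29.8% were called higher and 23.4%, 10.9% and 32.6% lower under FW, SD and AB. TRAVEDRAFT_173014 (2221491 to 2223892, minus strand), 4.28 kb from the start of MnP3s, had the largest called change among the others under FW and AB. It fell from 234 ± 181 CPM (standard deviation, n = 3) in the controls to 43.5 ± 20.7 CPM under FW (log2 fold change -2.43, SE 0.51, adjusted p = 0.00195) and 3.24 ± 0.0630 CPM under AB (-6.17, SE 0.63, adjusted p = 2.37e-06), and thus went the opposite way to MnP3s under FW and the same way under AB. Under SD the largest called change was that of TRAVEDRAFT_31086, 55.5 kb from MnP3s, which fell by 1.01 on the log2 scale (SE 0.16, adjusted p = 0.000953). TRAVEDRAFT_131096, named for its level, which was seen first, lies between MnP4s and MnP6s and was abundant throughout, at 2855 ± 124 CPM in the controls (n = 3), with log2 fold changes of 0.24, 0.26 and -0.22 (adjusted p 0.504, 0.539 and 0.508).

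**Figure D3:**
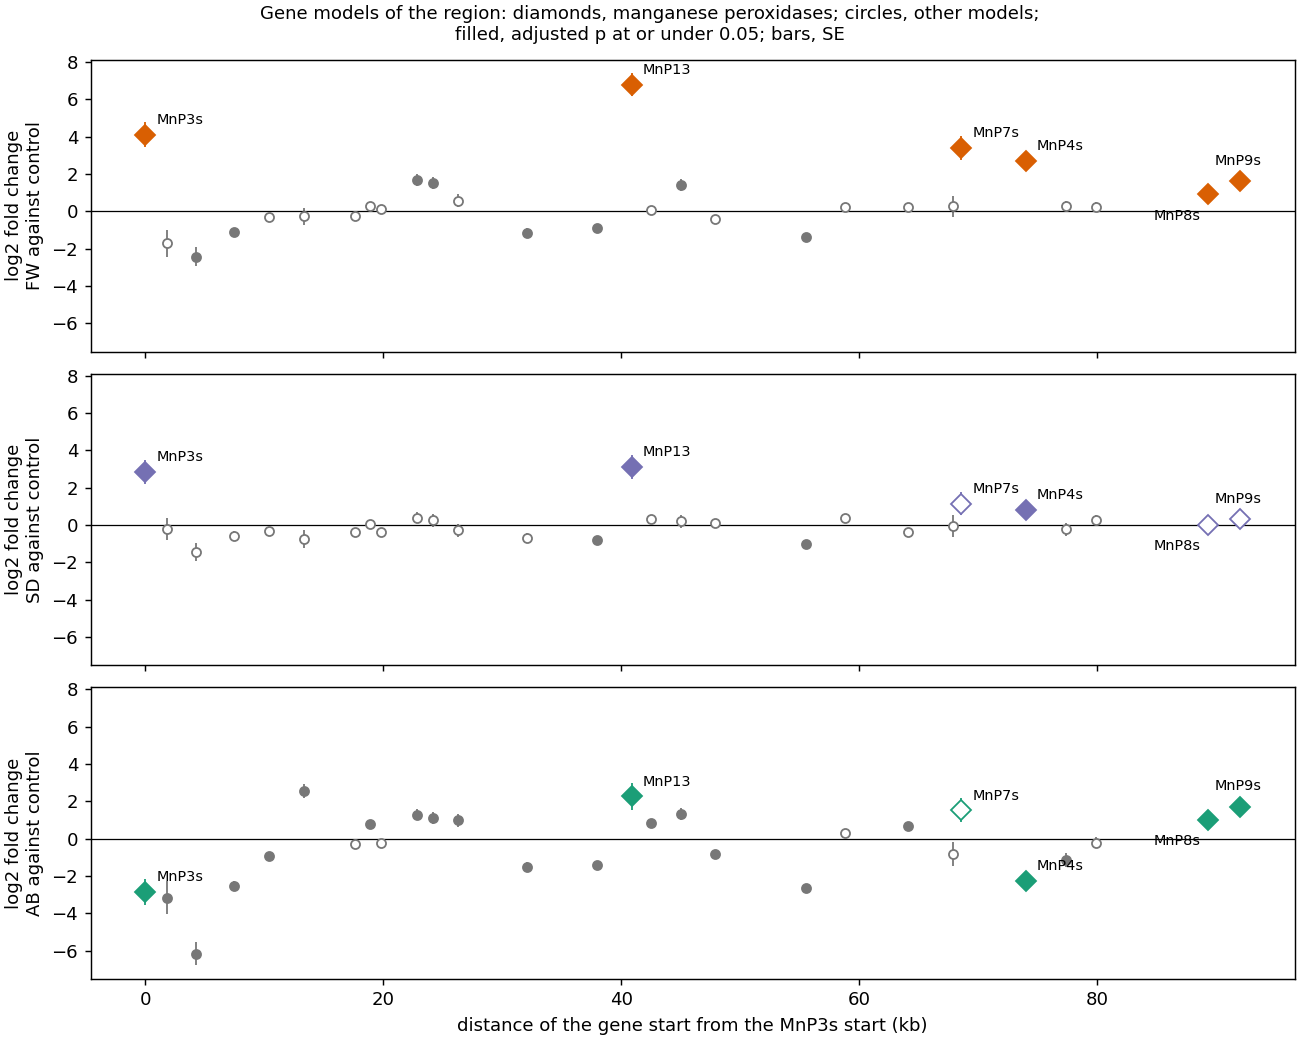
Log2 fold change against control under FW, SD and AB (y axes, bars SE) for the tested gene models of the stretch, by distance of the gene start from that of MnP3s in kb. The manganese peroxidases (diamonds) lie at 0.91 to 6.78 under FW, where the other models (circles) lie at -2.43 to 1.68. Under SD these ranges are -0.01 to 3.10 and -1.45 to 0.39. Under AB they are -2.86 to 2.26 and -6.17 to 2.55.

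Among the manganese peroxidases outside the stretch, 5 of 6 were tested, and 2 rose under FW, 1 rose under SD, and 2 rose and 1 fell under AB. Of the 3 versatile peroxidases, which oxidise Mn(II) and also aromatic substrates, 1 rose under FW, none was called under SD and 3 fell under AB. Of the 10 lignin peroxidases, which oxidise non-phenolic lignin units, 3 rose and 2 fell under FW, 2 rose under SD, and 1 rose and 3 fell under AB. By the size of a called change, LiP2 rose most among these families under FW (2.66, SE 0.76, adjusted p = 0.0115) and SD (3.58, SE 0.78, adjusted p = 0.00653), and MnP1s under AB (5.07, SE 0.41, adjusted p = 2.97e-07). The LiP2 libraries spread widely, from 19.9 to 89.6 CPM under FW and from 22.0 to 207 CPM under SD. In the controls they lay at 5.82 to 8.78 CPM. The largest falls were those of LiP8 under FW (-1.11, SE 0.28, adjusted p = 0.00641) and VP2 under AB (-8.26, SE 0.44, adjusted p = 8.42e-09). Of the dye-decolorising and heme-thiolate peroxidases, 2, 2 and none of 5 rose and 1, 2 and 4 fell under FW, SD and AB. Of the 8 laccases and multicopper oxidases none rose in any of these comparisons, and 1, 1 and 4 fell. Beside all these counts, the shares over all genes tested were 22.4%, 10.3% and 29.8% called higher and 23.4%, 10.9% and 32.6% called lower under FW, SD and AB.

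The make-up of the cluster's transcripts differed between groups. Levels of different genes are compared per kilobase of exon. MnP3s accounted for 45.5%, 30.5% and 70.9% of the summed CPM per kb of the 7 genes in the controls, for 71.0%, 59.9% and 79.5% under FW, and for 89.3%, 72.9% and 88.2% under SD. Under AB its share was 13.9%, 11.5% and 10.4%, below every other main library. MnP8s then had the largest mean level per kb, 14.8 CPM per kb, followed by MnP7s with 13.3, and these overlapped. The shares of MnP8s under AB were 47.6%, 34.6% and 33.8%, against 16.3%, 23.2% and 6.84% in the controls and 0.870% to 5.47% under FW and SD. A share also depends on the other genes, and the mean level of MnP8s was 15.0 CPM under FW and 16.2 CPM under AB. In the controls the order of mean levels per kb was MnP3s (33.4), MnP4s (12.6), MnP8s (7.31), MnP7s (4.67), MnP13 (0.498), MnP9s (0.335) and MnP6s (0.195). Of these neighbours MnP3s and MnP4s overlapped, as did MnP13 and MnP9s, and MnP9s and MnP6s. Under FW, MnP13 followed MnP3s (578) and MnP4s at 56.0 CPM per kb, overlapping with MnP4s (82.2) and MnP7s (48.9). Under SD the order was MnP3s (241), MnP4s (21.8), MnP7s (10.3), MnP8s (7.27), MnP13 (4.38), MnP9s (0.408) and MnP6s (0.281), where MnP4s to MnP13 each overlapped with the next.

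**Figure D4:**
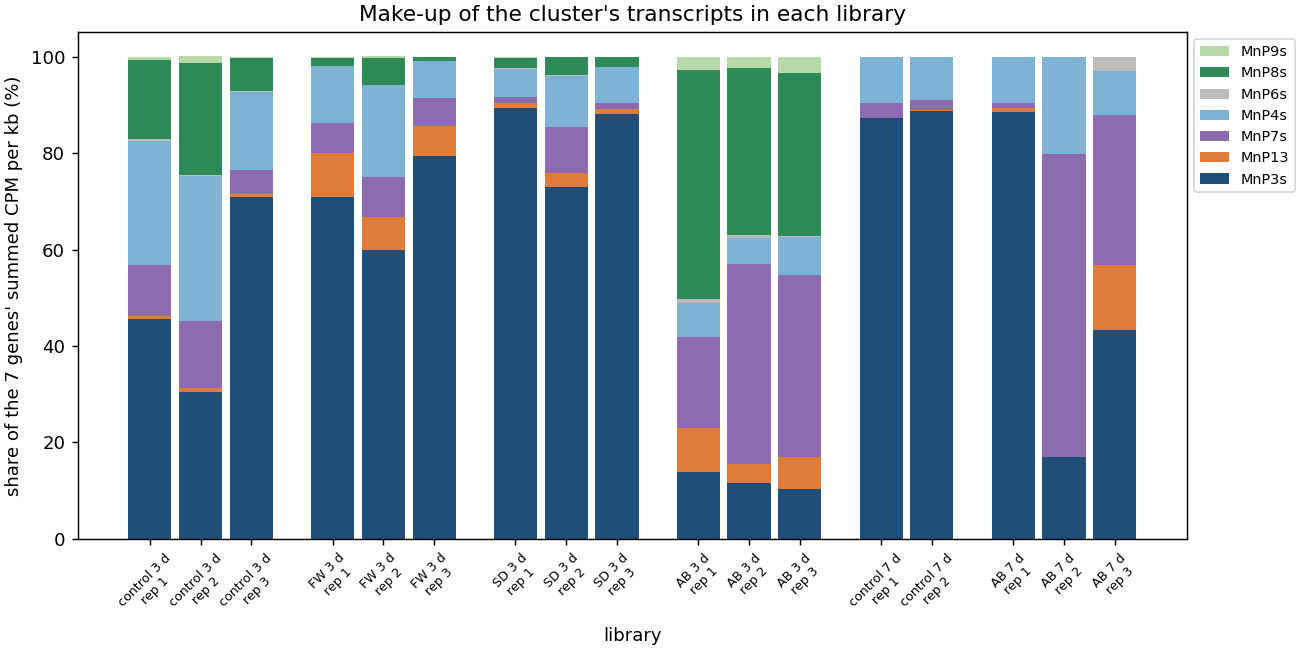
Share of each of the 7 genes in their summed CPM per kb (y axis, percent) in each of the 17 libraries. MnP3s holds 59.9% to 89.3% in the FW and SD libraries and 10.4% to 13.9% in the AB libraries at 3 days, where MnP8s and MnP7s hold most.

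Summed over the 7 genes, the level was 48.2, 37.5 and 106.6 CPM in the controls, 806, 328 and 1349 CPM under FW, 356, 254 and 315 CPM under SD, and 34.1, 48.5 and 43.0 CPM under AB. The FW and SD sums lay above the controls, and the AB sums overlapped with the controls. Under AB 3 of the 6 tested genes were called higher and 2 lower, where 62.4% of all genes tested were called. Within FW the genes did not follow 1 order of libraries. FW replicate 2 was the lowest for 4 genes (MnP3s, MnP13, MnP7s and MnP4s) and the highest for MnP8s and MnP9s. Control replicate 3 was the highest for MnP3s, MnP13, MnP4s and MnP6s and the lowest for the other 3.

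Likeness of pattern was measured as Pearson's r of log2 CPM over the 12 main libraries, as a description in which the 4 groups carry most of the spread. For MnP3s the most alike of 10837 other genes were TRAVEDRAFT_120415 (r = 0.972) and TRAVEDRAFT_73168 (0.957), and MnP4s ranked 10th (0.935). For MnP4s they were TRAVEDRAFT_50114 (0.978) and TRAVEDRAFT_120415 (0.976), with MnP3s in rank 38. So 1 gene was common to both lists. MnP13 was most like TRAVEDRAFT_159706 (0.975) and TRAVEDRAFT_175239 (0.965), and MnP7s most like TRAVEDRAFT_42634 (0.948) and TRAVEDRAFT_59233 (0.913). MnP13 ranked 37th for MnP7s (0.845), and MnP7s ranked 129th for MnP13. MnP8s was most like TRAVEDRAFT_58691 (0.970) and TRAVEDRAFT_58773 (0.962), MnP9s most like TRAVEDRAFT_158051 (0.967) and TRAVEDRAFT_60159 (0.966), and MnP8s and MnP9s held ranks 219 and 173 for each other (0.890). Between MnP3s and MnP8s r was -0.273. None of these 11 genes lies on scaffold 10. Over all 17 libraries, where r also carries the difference between the batches, the gene most like MnP3s was MnP4s (0.924). The gene in rank 2 for MnP8s was TRAVEDRAFT_31105 (0.996), also on scaffold 10. MnP8s had no counts in any preliminary library, and its r with MnP3s was then 0.366.

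After 7 days MnP3s held most of the summed CPM per kb in the controls, 87.3% and 88.7%. It had 41.6 and 44.0 CPM in the controls and 25.9, 0.425 and 0.816 CPM under AB. All AB libraries lay below both controls, yet AB replicate 1 stood far nearer to the controls than to the other AB libraries. The log2 fold change was -2.24 (SE 1.53, adjusted p = 0.461), and -6.08 (adjusted p = 0.0159) without AB replicate 1. Over all genes that library was close to AB replicate 3, with a median absolute log2 difference of 0.227, so it did not stand apart in general. MnP4s also lay below both controls in every AB library, at 4.57 and 4.44 CPM in the controls and 2.77, 0.503 and 0.169 CPM under AB (-1.97, SE 1.01, adjusted p = 0.331, and -3.75, adjusted p = 0.0649, without AB replicate 1). MnP7s had 1.48 and 1.09 CPM in the controls and 0.280, 1.59 and 0.591 CPM under AB, with AB replicate 1 lowest (-0.67, SE 0.75, adjusted p = 0.660).

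None of the 3 genes tested at 7 days was called with edgeR or with DESeq2, and none had an unadjusted p under 0.05, where 3.28% of all genes were called, 0.873% higher and 2.40% lower. The libraries did not overlap for 2 of the 3, against 40.6% of all genes. Whether the AB response differed between 7 and 3 days was tested as an interaction over all 17 libraries. Time and batch cannot be told apart in that test. In it 27.9% of all genes were called, 13.9% higher and 14.1% lower. The interaction was 0.60 (SE 1.56, adjusted p = 0.820) for MnP3s, 0.28 (SE 0.85, adjusted p = 0.853) for MnP4s and -2.22 (SE 1.05, adjusted p = 0.130) for MnP7s. MnP13 (-0.38, SE 2.93, adjusted p = 0.957) and MnP9s (-3.79, SE 1.51, adjusted p = 0.152) passed the filter of this model through the main libraries and had at most 6 counts in a preliminary one. No cluster gene was called by either tool or had an unadjusted p under 0.05. Without AB replicate 1 of the 7-day group, MnP3s (-3.21, adjusted p = 0.0338) and MnP4s (-1.55, adjusted p = 0.0339) were called with the opposite sign. Without replicate 2 of that group MnP7s was called, with its sign kept (-3.05, adjusted p = 0.0472).

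MnP8s had 0 counts in all 5 libraries of the preliminary batch, against 121 to 310 counts in every main library. Against a floor of 3 counts per library, its mean level in the controls at 3 days was at least 73.5-fold higher than in the 7-day controls, and its mean level under AB at 3 days at least 140-fold higher than under AB at 7 days, with levels scaled within each batch. Of 5825 genes with at least 121 counts in every main library, 19 had no counts in the preliminary batch. MnP9s had 1 count there in all and MnP6s 3. MnP13 had 6, 0 and 6 counts under AB and 0 and 2 in the controls. Age, batch and any other difference between the batches cannot be told apart in this contrast, and whether 0 counts stand for absent transcript or for reads not assigned to MnP8s was not tested.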

How the data were processed

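Read counts per gene model were deposited by the authors as 2 tables, 1 per batch, not normalised. HISAT2 and featureCounts are named in the submitters' processing notes. No source used here gives their versions, the build, or how strand and multi-mapping reads were handled. Library preparation selected polyA from 200 ng of RNA, per the labels. The deposited tables give exon coordinates, and symbols came from models with equal start and end in RefSeq's gene table of Trametes versicolor v1.0 (14214 of 14296 models, 42 with a symbol). No sequence of the genes was used here.

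From the counts, edgeR 4.0.16 in R 4.3.3 fitted quasi-likelihood models with TMM scaling and the default filter by group, to the 12 main libraries (10838 genes tested), the 5 preliminary libraries (10192) and all 17 (11057). Residual degrees of freedom were 8, 3 and 11. Tests were two-sided and adjusted over all genes tested. SEs were computed as the absolute log2 fold change over the square root of F, and 95% intervals from them with the t distribution at the test's degrees of freedom, both approximate for low counts. Simulated counts were used to test the main model for FW against control and the preliminary model for AB against control. The model of all 17 libraries was not tested in this way. Replicates differed by more than sampling noise. The samples are titled as biological replicates. Each p-value sets a difference between groups against the spread among such replicates alone, estimated over all groups of the fit.

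Alternatives were RLE scaling, DESeq2 1.42.0, no filter, each library left out, a replicate block and fits of 2 groups alone. Every cluster gene was named. Of other genes, the rule named the largest called change among neighbours and among MnP, VP and LiP genes, and the 2 most alike genes. The order in which genes are described followed their values, as did the choice of TRAVEDRAFT_131096. Members and lists were chosen with earlier results of these data known.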

Additional observations from a re-analysis of the deposited data

How the results depend on the processing

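The number of cluster genes called at 3 days stayed within 1.5 times under RLE scaling, DESeq2, no filter, fits of 2 groups alone and each library left out. With a replicate block it was 6, 3 and 5 for FW, SD and AB against control, 5, 4 and 4 between phases, and 0 for both 7-day comparisons, so the block changed no count. Correlations of deviations between main libraries of the same replicate number were -0.175 to 0.394 (median 0.0246). Between libraries of different numbers they were -0.398 to 0.315 (median -0.0294). These ranges overlap and do not settle whether replicate numbers pair the libraries. With a library left out, the counts ranged from 0 to 1 for AB at 7 days and from 0 to 2 for the difference between the AB responses. Where leaving out a library gave another sign, the log2 values ranged from -0.19 to 1.55 for MnP7s under SD, -0.14 to 0.16 for MnP8s under SD (0.02 in a fit of 2 groups alone), -0.27 to 0.02 for MnP8s and -0.21 to 0.10 for MnP9s between FW and AB, and -1.72 to 0.01 for MnP7s between SD and AB. For the difference between the AB responses they ranged from -3.21 to 1.18 for MnP3s (-0.81 with the replicate block), -1.50 to 2.52 for MnP13 and -1.55 to 0.81 for MnP4s. The cause was not tested. Leaving out 1 of the 2 preliminary controls assumes that the other varies like the AB libraries. The most alike gene was another one for each of the 6 genes over all 17 libraries, for MnP3s the cluster gene MnP4s. There r also carries the difference between the batches. MnP6s, and MnP9s and MnP13 in controls, were at a few counts. Floors cover counting error only.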
